A study of Homo sapiens with 6 samples.

Results

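The genes described here are those of the cyclins that drive the cell division cycle and of their main kinase partners: the D-type cyclins CCND1, CCND2 and CCND3, the E-type cyclins CCNE1 and CCNE2, the A-type cyclin CCNA2, the B-type cyclins CCNB1 and CCNB2, and the cyclin-dependent kinases CDK1 and CDK2. They were taken by symbol, and all 10 were found once among the 57773 genes of the deposited count table. RNA was sequenced from SW872, an established human liposarcoma cell line grown in RPMI medium with serum. In one group, 3 replicates received 18 μM Apatinib, an inhibitor of the VEGFR-2 tyrosine kinase, for 24 h, and the other group was 3 control replicates. Both groups come from this single line, and the replicates are described in the study's methods as biological. Whether the control cells were left untreated or received a vehicle is not stated.

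Cyclins have no catalytic activity of their own. Each binds a cyclin-dependent kinase, switches it on and helps choose its substrates, and most are made and destroyed within every division. D-type cyclins respond to growth factors and act with CDK4 and CDK6 early in G1, E-type cyclins act with CDK2 at the entry into S phase, cyclin A2 acts with CDK2 and CDK1 through S and G2 phase, and B-type cyclins act with CDK1 in mitosis. The messages of the E, A and B cyclins and of CDK1 are periodic, being made by E2F factors at the G1/S boundary or by the MuvB, MYBL2 and FOXM1 machinery in G2, and cyclin D1 is known in many tumors as a growth factor output.

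The replicates held between 17043314 counts (control replicate 1) and 22067558 counts (control replicate 3). Control replicates 1 and 2 were the most alike pair within a group. Their counts gave an average chi-square of 2.27 over genes, against 18.2 to 44.5 for the other pairs and 1 for noise of sampling alone, which does not show whether they came from separate cultures. They were used as the 2 samples the labels give, and results that rest on them are given without them too. Of 12 mesenchymal marker genes, 11 had a mean FPKM (fragments scaled to transcript length and to the mapped fragments of the library) above 1, with a summed FPKM of 2861 to 3614 with Apatinib and 2505 to 2854 in the control. Of 9 adipocyte markers 2 were above 1, and ADIPOQ, FABP4 and CEBPA had 0 counts in all replicates, although CEBPA was listed at 0.0579 to 0.319 FPKM. The 2 above 1 were PPARG and LPL. Of 7 epithelial markers 2 were above 1 (KRT8 and KRT18), with summed FPKM of 187 to 223 with Apatinib and 155 to 187 in the control. Endothelial markers summed to no more than 2.74 FPKM in any replicate, and of 6 immune markers PTPRC and LYZ had 0 counts and CD68 at most 1, with a summed FPKM of 7.78 to 13.3 with Apatinib and 3.77 to 5.07 in the control. That sum rested mainly on CD68, whose counts and FPKM disagreed, and without it the sum was 0.996 to 1.53 with Apatinib and 1.77 to 1.98 in the control. The part of these markers in the results was not tested.

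With Apatinib, cyclin D1 was higher while the E, A and B cyclins and both kinases had lower values. CCND1 rose 1.57-fold, CCNE2 was 3.31-fold lower and CDK1 was 2.03-fold lower, and these 3 were differentially expressed genes (DEGs), defined by an FDR below 0.05 together with an absolute log2 fold change over 0.5 in edgeR's quasi-likelihood test. Of the 10 genes, 9 passed edgeR's filter on low counts, and the 10th, CCND2, was close to 0 throughout. Thus 3 of 9 (33.3%) were DEGs, 1 higher and 2 lower, against 11.5% of all 16290 genes tested (5.97% higher and 5.48% lower). The genes were chosen with earlier results of these data known, so setting these shares side by side is a description and no test. By the FDR alone the same number of the 9 passed, against 12.9% of all genes. Without control replicate 1, without control replicate 2 or with these 2 summed as 1 sample the number fell to 1, CCNE2, while the DEGs over all genes fell from 1866 to 275, 300 and 292. In CPM (counts relative to the library size after TMM scaling in edgeR), the groups did not overlap in 8 of the 9 genes, with Apatinib below control in 7 and above in 1. Over all genes tested, the groups did not overlap in 33.2%, with Apatinib below in 15.7% and above in 17.5%. The median log2 fold change was -0.44 over the 9 genes and 0.00 over all genes tested. In a bulk culture, fewer cells in a phase of the cycle and less RNA of a gene per cell cannot be told apart.

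**Figure D1:**
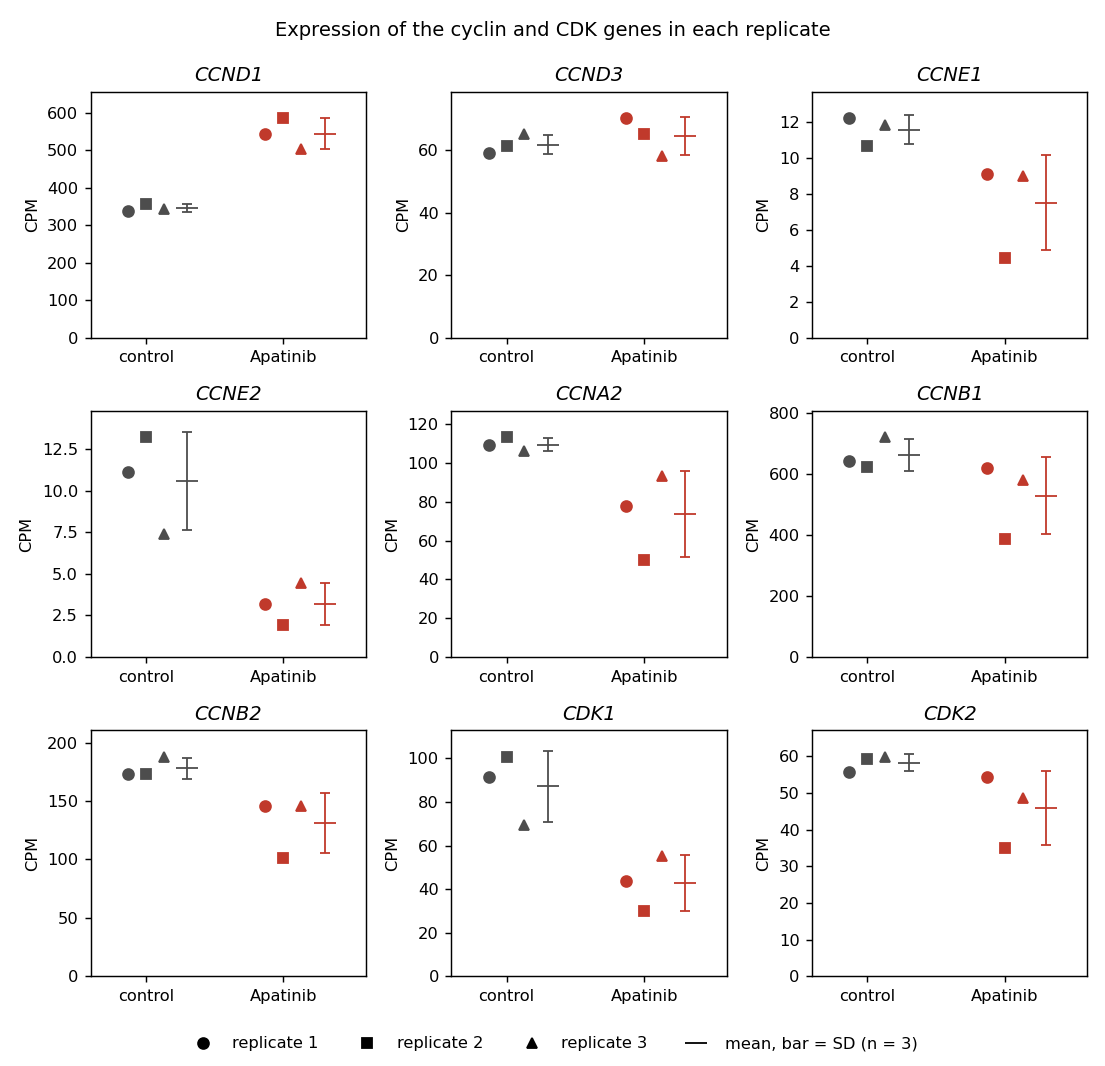
Expression in CPM (vertical axis, from 0) of the 9 genes that were tested, for the 3 control and 3 Apatinib replicates (points, a symbol per replicate number), with the mean and SD of each group beside them. CCND1 was higher in every Apatinib replicate, CCND3 overlapped between the groups, and in the other 7 genes Apatinib replicate 2 was the lowest of all 6 samples.

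Cyclin D1, the regulatory subunit of CDK4 and CDK6, was the only one of the 10 genes that was a DEG with a higher value. CCND1 (ENSG00000110092) was at 544, 586 and 504 CPM in Apatinib replicates 1 to 3 and at 338, 357 and 343 CPM in control replicates 1 to 3. The lowest Apatinib value was thus well above the highest control value, and the controls lay close together. The Apatinib mean was 545 ± 41.5 CPM and the control mean 346 ± 9.66 CPM (SD, n = 3 each). The log2 fold change was 0.65 (standard error 0.116, 95% interval 0.40 to 0.91, edgeR FDR = 0.00847). It ranged from 0.60 to 0.71 when 1 replicate was left out, and the gene was no longer a DEG without control replicate 1 (edgeR FDR = 0.0657) or without control replicate 2 (edgeR FDR = 0.0542). The size of the rise hardly moved in those fits, with log2 fold changes of 0.63 and 0.67. Exons of CCND1 overlap LTO1 on the opposite strand, listed in the files as ORAOV1, which differed by -0.03 on the log2 scale (edgeR FDR = 0.934). Whether the counting used the strand is not given in the sources used here.

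Cyclin D3, which pairs with the same kinases, showed no difference beyond the replicate spread. CCND3 (ENSG00000112576) was at 70.4, 65.4 and 58.3 CPM with Apatinib and at 59.1, 61.4 and 65.1 CPM in the control. The groups overlapped fully, and the means of 64.7 ± 6.06 and 61.9 ± 3.07 CPM (SD, n = 3 each) differed by less than the spread of the replicates. The log2 fold change was 0.06 (edgeR FDR = 0.762), with a 95% interval from -0.20 to 0.33 that leaves out a rise of the size measured for CCND1. Cyclin D2 was not detected. CCND2 (ENSG00000118971) had 0 counts in 5 libraries and 1 count in Apatinib replicate 2. In the libraries with 0 counts, 3 counts, the limit that a count of 0 allows, correspond to 0.137 to 0.175 CPM. This limit covers counting error only and does not apply to Apatinib replicate 2. In FPKM, CCND2 was at 0.00734 in Apatinib replicate 2 and listed at 0 in the others. Its exons overlap CCND2-AS1 on the opposite strand, which had 0 counts throughout, and AC008012.1 on the same strand, whose counts were not analysed here.

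On the FPKM scale, which allows genes of different length to be compared, CCND1 made up 82.5%, 84.4% and 83.4% of the summed D-type cyclin FPKM in Apatinib replicates 1 to 3. In control replicates 1 to 3 the share was 77.6%, 77.9% and 76.0%. By FPKM, the D-type cyclin RNA of SW872 cells was therefore mostly that of CCND1 in both groups, and the share was higher in each Apatinib replicate. Protein was not measured here. The ratio of CCND3 to CCND1 within a sample, which does not depend on how libraries are scaled, was 0.212, 0.185 and 0.199 in the Apatinib replicates and 0.289, 0.284 and 0.315 in control replicates 1 to 3. The mean log2 ratio differed by -0.58 between the groups, which did not overlap (two-sided exact permutation, p = 0.1, which is the lowest value possible with 3 replicates against 3, and 0.2 after Benjamini-Hochberg adjustment over 6 ratios).

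Both E-type cyclins, which activate CDK2 for the start of DNA replication, had lower values with Apatinib, and only the fall of CCNE2 passed the test. CCNE2 (ENSG00000175305) was at 3.20, 1.92 and 4.46 CPM with Apatinib and at 11.1, 13.2 and 7.38 CPM in the control. The groups did not overlap, although the gene rested on only 34 to 78 counts with Apatinib and 161 to 240 in the control. Its log2 fold change was -1.72, with a standard error of 0.299 (95% interval -2.38 to -1.07, edgeR FDR = 0.00776), and 0.196% of all genes tested had a larger fall. CCNE2 was the one gene of the 10 that stayed a DEG whichever replicate was left out, with log2 fold changes from -2.04 to -1.45 and edgeR FDR values up to 0.0405. INTS8, whose exons share bases with CCNE2 on the other strand, differed by -0.22 on the log2 scale (edgeR FDR = 0.276).

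The deposited FPKM values of CCNE2 did not follow its counts. They were 0.915, 0.570 and 2.68 FPKM in Apatinib replicates 1 to 3 and 6.22, 5.30 and 2.59 FPKM in control replicates 1 to 3, so that Apatinib replicate 3 lay above control replicate 3 and the groups overlapped. The ratio of FPKM to CPM should be nearly constant for a gene, and for CCNE2 it ranged over 1.07 on the log2 scale across the 6 samples, a range that 3.17% of genes with a mean FPKM above 0.5 exceeded. For the other 8 genes the range lay between 0.108 and 0.225. With limma on log2(FPKM + 1), the log2 fold change of CCNE2 was -1.30 (FDR = 0.0632), and with a pseudocount of 0.1 it was -1.87 (FDR = 0.110). Table and test changed together in these fits, which called fewer of all genes too, so their parts in the lost call were not told apart.

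CCNE1 (ENSG00000105173) was at 9.13, 4.46 and 8.99 CPM with Apatinib and at 12.2, 10.7 and 11.9 CPM in the control. The groups did not overlap, but Apatinib replicate 2 was far below the other two, and without it the log2 fold change went from -0.62, with a standard error of 0.241 and an edgeR FDR of 0.107, to -0.35. In FPKM, CCNE2 made up 20.8%, 24.2% and 41.7% of the E-type sum with Apatinib and 58.0%, 55.6% and 38.0% in the control. These shares carry the FPKM values of CCNE2 that did not follow its counts. The log2 ratio of CCNE2 to CCNE1 differed by -1.38 between the groups in FPKM, where they overlapped (exact two-sided permutation test, p = 0.2), and by -1.07 in counts, where they did not (p = 0.1 by the same exact test).

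CDK1, the kinase that starts mitosis, fell in every comparison of one Apatinib with one control replicate. CDK1 (ENSG00000170312) was at 43.6, 29.7 and 55.4 CPM with Apatinib and at 91.4, 101 and 69.2 CPM in the control. The group means of 42.9 ± 12.8 and 87.1 ± 16.2 CPM (SD, n = 3 each) were further apart than the spread within either group. The log2 fold change was -1.02 (standard error 0.211, 95% interval -1.48 to -0.56, edgeR FDR = 0.0140). Of the controls, replicate 3 was the lowest, and without it the log2 fold change was -1.16 (edgeR FDR = 0.00248). Without control replicate 1 or control replicate 2 the edgeR FDR was 0.0637 and 0.0707, with log2 fold changes of -0.99 and -0.91.

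CDK2, the partner of the E and A cyclins, had a smaller difference that did not pass the test. CDK2 (ENSG00000123374) was at 54.4, 34.8 and 48.7 CPM with Apatinib and at 55.6, 59.2 and 59.8 CPM in the control. The groups did not overlap, but Apatinib replicate 1 nearly reached the lowest control. The log2 fold change was -0.34 (edgeR FDR = 0.172), with a 95% interval from -0.69 to 0.01, and was -0.17 without Apatinib replicate 2 (edgeR FDR = 0.339). Exons of CDK2 overlap PMEL on the opposite strand, which had under 1 CPM in both groups. The ratio of CDK1 to CDK2 in FPKM was 0.519, 0.563 and 0.757 in the Apatinib replicates and 1.09, 1.20 and 0.753 in control replicates 1 to 3. CDK1 exceeded CDK2 in control replicates 1 and 2 only, and control replicate 3 was level with Apatinib replicate 3, and the mean log2 ratio differed by -0.72 with overlapping groups (exact two-sided permutation test, p = 0.2). From counts the difference was -0.68 with no overlap (p = 0.1 by the same exact test, the lowest value this design allows).

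**Figure D2:**
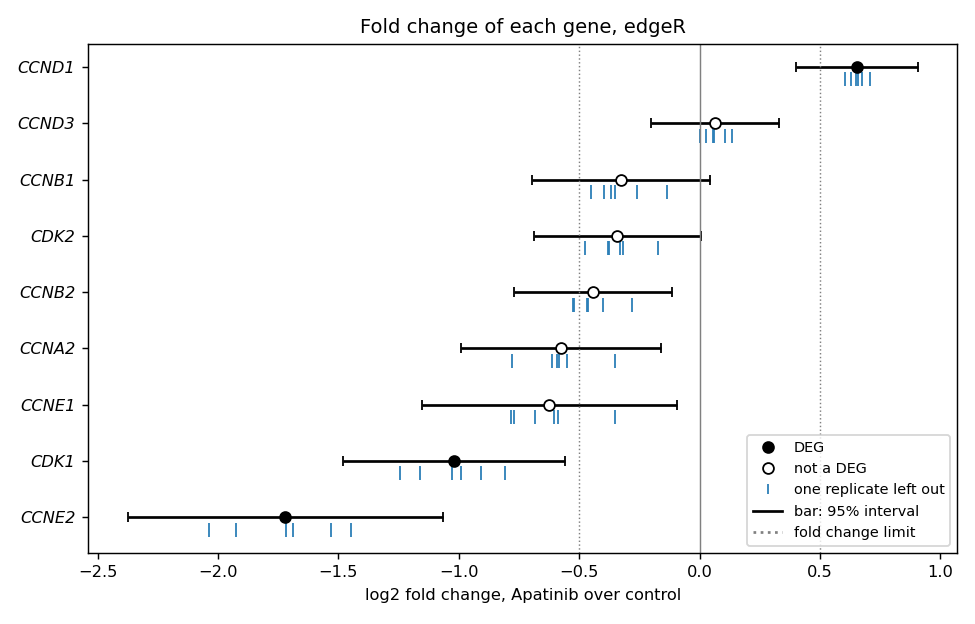
Log2 fold change (horizontal axis, Apatinib over control) of the 9 tested genes from edgeR, with 95% intervals (bars), DEGs as filled circles, and the values with 1 replicate left out as blue ticks. CCND1 lies at 0.65, CDK1 at -1.02 and CCNE2 at -1.72, and the intervals of CCND3, CCNB1 and CDK2 cross 0.

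Cyclin A2 and both B-type cyclins were lower in every Apatinib replicate than in every control replicate, with group means that differed by less than 1.5-fold, and none was a DEG. CCNA2 (ENSG00000145386) was at 77.7, 49.7 and 93.4 CPM with Apatinib and at 109, 113 and 106 CPM in the control. The controls spanned only a few CPM and the Apatinib replicates spread widely, with replicate 2 the lowest. Its log2 fold change was -0.57 (standard error 0.190, edgeR FDR = 0.0668), and was -0.35 without Apatinib replicate 2. CCNA2 was near the limit: the FDR was 0.0256 with DESeq2 and its own default filter, 0.0037 with edgeR and no filter on low counts, and 0.0300 with edgeR without Apatinib replicate 3. It was 0.180 and 0.199 with edgeR without control replicates 1 and 2, 0.186 with these summed, and 0.103 and 0.153 with limma on FPKM with pseudocounts of 1 and 0.1. Exons of CCNA2 overlap EXOSC9 on the opposite strand, which differed by -0.47 on the log2 scale (edgeR FDR = 0.0555).

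CCNB1 (ENSG00000134057), the most abundant of the 10 genes by FPKM in every replicate, was at 619, 385 and 580 CPM with Apatinib and at 642, 622 and 719 CPM in the control. Apatinib replicate 1 nearly touched control replicate 2, and the log2 fold change of -0.32 had an edgeR FDR of 0.218 and a 95% interval from -0.69 to 0.05. Without Apatinib replicate 2 it was -0.14 (edgeR FDR = 0.425). CCNB2 (ENSG00000157456) was at 146, 101 and 146 CPM with Apatinib and at 173, 173 and 188 CPM in the control, and differed by -0.44 on the log2 scale (standard error 0.149, edgeR FDR = 0.0710), or by -0.28 without Apatinib replicate 2. CCNB1 made up 73.8% to 75.8% of the B-type FPKM with Apatinib and 72.3% to 74.0% in the control. The log2 ratio of CCNB2 to CCNB1 differed by -0.11, and the groups overlapped (exact two-sided permutation test, p = 0.2).

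The ratio of CCNB1 to its kinase CDK1 in FPKM was 12.3, 11.3 and 8.90 in the Apatinib replicates and 6.25, 5.19 and 9.05 in control replicates 1 to 3. Control replicate 3 was the exception, lying above Apatinib replicate 3, and the difference of 0.69 in the mean log2 ratio had p = 0.2 in the exact two-sided permutation test. From counts the difference was 0.70 with no overlap (p = 0.1 by the same exact test). The ratio of CCNA2 to CDK2 differed by -0.29 on the log2 scale, with overlap (exact permutation p = 0.2). All 6 ratios had an adjusted p of 0.2.

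**Figure D3:**
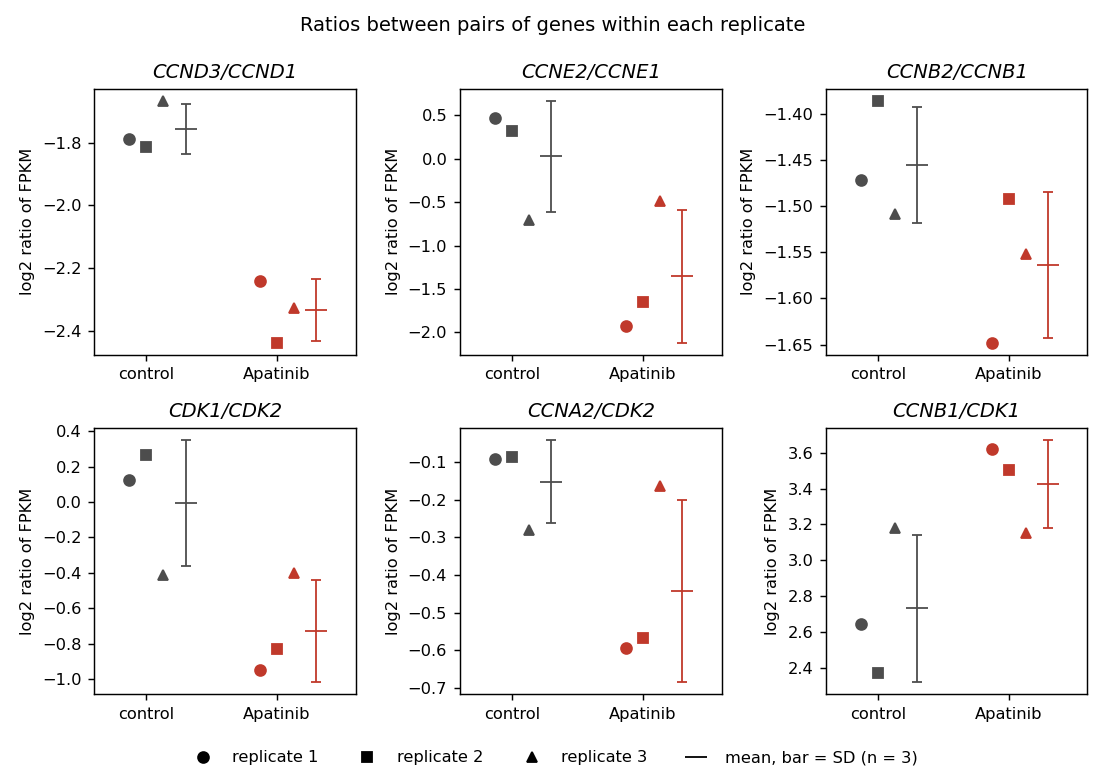
Log2 ratio of the FPKM of 2 genes within each sample (vertical axis, scaled per panel and not from 0) for control and Apatinib replicates (points), with the mean and SD of each group. CCND3/CCND1 is the 1 ratio of the 6 in which the groups did not overlap, and in CDK1/CDK2 and CCNB1/CDK1 control replicate 3 lies beside Apatinib replicate 3.

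Promoter sequence was read from a table made from RefSeq (GRCh38.p14), in which 6 of the 10 genes were matched. The promoters of CCND1, CCND2, CCNE2 and CDK2 were not analysed here. The 4 genes of S, G2 and M phase are shown because their promoters are textbook cases of CCAAT boxes, which NF-Y binds, and of a CHR element near the start, which MuvB complexes bind. Their lower values with Apatinib were also a reason for the choice, but of the 4 only CDK1 was a DEG. CCNE1, CCNE2 and CDK2 had lower values too. A link between these elements and the values was not tested. Each line gives the 250 bases before the annotated start, 5′ to 3′ on the strand of the gene, with capitals marking matches on either strand to CCAAT and to the CHR-type words TTTGAA or else CTTGAA or else TTTAAA, and in CDK1 also to TTTCGCGC, a word of the E2F kind. No match overlapped another. The windows are chr4:121823884-121824133 on the minus strand for CCNA2, and on the plus strand chr5:69166900-69167149 for CCNB1, chr15:59104896-59105145 for CCNB2 and chr10:60778228-60778477 for CDK1. The window of CDK1 belongs to the second of its 2 annotated starts, which lie 147 bases apart, and was chosen for display after the matches in both were seen.
CCNA2: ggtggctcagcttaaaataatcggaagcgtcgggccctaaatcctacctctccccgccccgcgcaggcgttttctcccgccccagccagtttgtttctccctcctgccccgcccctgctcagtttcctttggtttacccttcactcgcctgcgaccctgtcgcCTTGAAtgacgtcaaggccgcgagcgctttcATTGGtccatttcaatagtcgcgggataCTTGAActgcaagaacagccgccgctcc
CCNB1: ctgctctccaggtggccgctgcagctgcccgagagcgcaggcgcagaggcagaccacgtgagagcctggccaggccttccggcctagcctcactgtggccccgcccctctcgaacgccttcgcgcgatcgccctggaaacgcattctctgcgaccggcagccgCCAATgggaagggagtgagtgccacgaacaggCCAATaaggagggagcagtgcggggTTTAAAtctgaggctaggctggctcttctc
CCNB2: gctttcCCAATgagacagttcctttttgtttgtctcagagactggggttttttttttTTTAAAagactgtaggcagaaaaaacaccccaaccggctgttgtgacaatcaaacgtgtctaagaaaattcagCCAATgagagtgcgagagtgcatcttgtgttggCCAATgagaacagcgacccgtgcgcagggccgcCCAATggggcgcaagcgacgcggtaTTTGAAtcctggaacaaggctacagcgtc
CDK1: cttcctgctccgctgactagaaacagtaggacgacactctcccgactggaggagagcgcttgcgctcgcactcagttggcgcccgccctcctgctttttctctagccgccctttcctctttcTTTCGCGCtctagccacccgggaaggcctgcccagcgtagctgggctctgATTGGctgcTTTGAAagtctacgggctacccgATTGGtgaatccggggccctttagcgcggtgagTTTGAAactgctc

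All 4 windows held both a CCAAT match and a CHR-type word. Of 35116 promoter windows of the same length, 32.0% held CCAAT, 28.2% a CHR-type word and 9.91% both, and since the 4 genes were chosen as known cases of these elements, these shares are given as background only. The last CCAAT match and the last CHR-type word began 25 bases apart in CCNB1 and CCNB2, 28 bases apart in CCNA2 and 33 bases apart in the window shown for CDK1. In the window of the first CDK1 start they began 19 bases apart, with 1 CCAAT match, 2 CHR-type words and no E2F-type word. The final CCAAT matches in CCNB1 and CDK1 followed one another at 32 bases, and those in CCNB2, which held 4 matches in all, at 33 bases. TTTCGCGC stood 128 bases before the CDK1 start and was found in 0.439% of windows, and TTTGGCGC (0.55% of windows) and TTTCCCGC (1.39%) were in none of the windows read for these genes. CCNE1 held a TTTAAA 28 bases before its start and no CCAAT, and the 3 windows of CCND3 held no CHR-type word and a CCAAT in 2 of them. These are matches of letters only.

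The order of the genes by FPKM differed between the groups. In all 3 controls the order began with CCNB1, CCNB2 and CCND1, at means of 220 ± 15.5, 80.0 ± 2.20 and 71.5 ± 2.12 FPKM (SD, n = 3 each). In all 3 Apatinib replicates CCND1 stood second, at 112 ± 10.4 FPKM, behind CCNB1 at 175 ± 36.3 and ahead of CCNB2 at 58.8 ± 10.2 FPKM. The ratio of CCNB2 to CCND1, which was singled out after its values were seen, was 0.585, 0.380 and 0.630 in the Apatinib replicates and 1.11, 1.06 and 1.19 in control replicates 1 to 3. In the control CDK1 (33.5 ± 6.91 FPKM), CDK2 (33.1 ± 0.912) and CCNA2 (29.8 ± 1.45) followed, of which CDK1 could not be set apart from the other two. CCND3 came next at 21.1 ± 0.541 FPKM, and CCNE2 (4.70 ± 1.89) and CCNE1 (4.32 ± 0.159) overlapped at the low end. With Apatinib, CDK2 (26.9 ± 5.27), CCND3 (22.2 ± 1.07), CCNA2 (20.1 ± 5.85) and CDK1 (16.5 ± 5.09) overlapped from one to the next, and CCNE1 (3.002 ± 1.06) and CCNE2 (1.39 ± 1.13) were last.

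**Figure D4:**
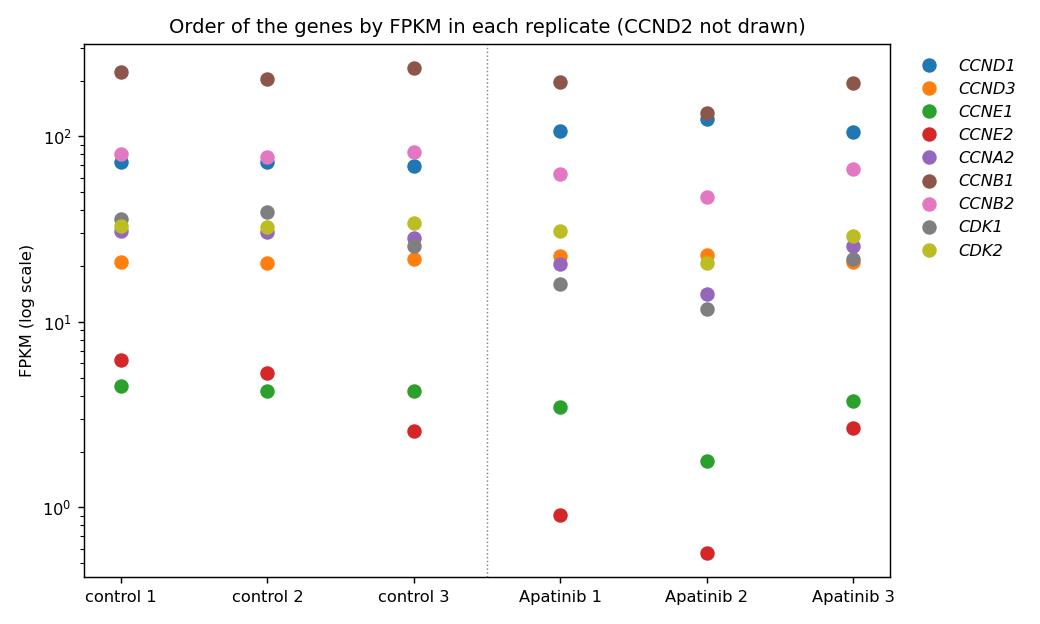
FPKM (vertical axis, log scale) of the 9 genes in each control and Apatinib replicate (a color per gene, columns in no order within a group). CCNB1 is highest in all 6 replicates, CCND1 lies below CCNB2 in the controls and above it with Apatinib, and the spread of CCNE2 is the widest.

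The replicates of a group did not vary in the same way for all genes. Apatinib replicate 2 had the lowest CPM of all 6 samples for all 7 of CCNE1, CCNE2, CCNA2, CCNB1, CCNB2, CDK1 and CDK2, and the highest CPM of CCND1. Control replicate 3 had the lowest control CPM of CCNE2, CDK1 and CCNA2, and the highest of CCNB1, CCNB2 and CDK2. Across the 6 samples, the pattern of CDK1 in log2 CPM was most like that of HELLS, a chromatin remodeling helicase (Pearson r = 0.999), FAM111B (0.998) and EFCAB11 (0.998). CCNE2 was most like CKAP5, a microtubule polymerase (0.998), NUF2, a kinetochore subunit (0.997), and EFCAB11 (0.997). CCND1 was most like PCSK5, a proprotein convertase (0.998), PXDC1 (0.997) and CDH13, a cadherin (0.996). These points share the group difference and the libraries, and 453, 485 and 470 genes had r above 0.95 with CDK1, CCNE2 and CCND1, so these values describe 6 samples only.

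The other parts of the cyclin-CDK system were counted on 6 lists, without a test of a list. Of all genes tested, 49.7% had a lower value with Apatinib, 5.97% were DEGs that rose and 5.48% DEGs that fell, beside which the counts stand. Of 16 other cyclins tested, 10 were lower and 6 higher, and 1 was a DEG (6.25%, against 11.5% of all genes), with a median log2 fold change of -0.14. That gene was CCNT2, a partner of the elongation kinase CDK9, at -0.74 on the log2 scale (edgeR FDR = 0.0274). CCNT2 was not a DEG without control replicate 1 or 2 (edgeR FDR = 0.112 and 0.136) or Apatinib replicate 1 (0.0837). CCNF, which marks proteins for destruction in G2, had a mean of 60.9 ± 21.4 CPM under Apatinib against 101 ± 11.96 CPM in control cells (SD, n = 3 each) and was not a DEG (edgeR FDR = 0.0535). CCNI and CCNA1, a germline A-type cyclin, had higher values in every Apatinib replicate, at 0.41 and 0.47 on the log2 scale, and were not DEGs either (edgeR FDR = 0.0577 and 0.0666). Of 19 other CDKs, 2 were DEGs (10.5%), with a median of -0.11. CDK6, a partner of the D-type cyclins, had means of 172 ± 27.1 CPM under Apatinib and 290 ± 58.9 CPM in control cells (SD, n = 3 each). Its log2 fold change was -0.75 (edgeR FDR = 0.0198). CDK6 was not a DEG without control replicate 1 or 2 (edgeR FDR = 0.0957 and 0.102) or Apatinib replicate 1 (0.0604). CDK4, the other partner, differed by 0.11 on the log2 scale (edgeR FDR = 0.639). CDK18 rose by 0.81 on the log2 scale (edgeR FDR = 0.00776), and was not a DEG without control replicate 1 (edgeR FDR = 0.0583).

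Of the 7 genes of CDK inhibitor proteins, 2 were DEGs (28.6%, against 11.5% of all genes), both higher, with a median of 0.32 over the list. Other settings also gave a lower DEG. EdgeR called 1 higher and 1 lower without Apatinib replicate 1, and 3 higher and 1 lower with no filter on low counts. DESeq2, and edgeR with the replicate number as a block, each called 2 higher and 1 lower. CDKN1C, which encodes p57, had CPM values of 34.1, 24.1 and 27.8 in the Apatinib replicates and 13.6, 11.9 and 16.8 in control replicates 1 to 3, with no overlap. Its log2 fold change was 1.02 (standard error 0.176, edgeR FDR = 0.00776), and CDKN1A, which encodes p21, was the other. CDKN1A was not a DEG without control replicate 1 or 2 (edgeR FDR = 0.134 and 0.119) or without Apatinib replicate 1 or 2 (0.062 and 0.0582). CDKN2C, an inhibitor of CDK4 and CDK6, had -0.53 (edgeR FDR = 0.0947). On a list of CDK regulators, 14 of 16 tested rows (15 symbols, with CKS1B under 2 identifiers) were lower, 2 were DEGs (12.5%, against 11.5%) and the median was -0.23. CDC25A, the phosphatase that activates CDK2, fell by 0.84 on the log2 scale, to 9.71 ± 2.95 CPM against 17.3 ± 0.195 CPM in control cells (SD, n = 3 each, edgeR FDR = 0.0279). CDKN3, a CDK phosphatase, fell by 0.63 (edgeR FDR = 0.0368). Without control replicate 1 or 2 neither was a DEG, with edgeR FDR values of 0.0959 and 0.0973 for CDC25A and 0.135 and 0.136 for CDKN3. CDKN3 was not a DEG without Apatinib replicate 1 or 2 either (edgeR FDR = 0.0705 and 0.0511).

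Of 29 genes of cyclin degradation, 23 were lower and 2 were DEGs (6.90%, against 11.5% of all genes), with a median of -0.16. FBXO5, an inhibitor of the anaphase-promoting complex (APC/C), was at 20.5, 18.1 and 23.2 CPM with Apatinib and at 48.8, 51.4 and 35.1 CPM in the control, and fell by 1.13 on the log2 scale (edgeR FDR = 0.00482). CDC27, a subunit of the APC/C, had -0.63 (edgeR FDR = 0.0249), and SKP2, which directs the destruction of CDK inhibitors, had -0.56 without passing the test (edgeR FDR = 0.145). Of 25 tested genes that control cyclin transcription, 20 were lower and 6 were DEGs (24.0%, against 11.5% of all genes), all of them lower (5.48% of all genes), with a median of -0.23. RBL1, which encodes the pocket protein p107, fell by 1.16 on the log2 scale (edgeR FDR = 0.00304), E2F8, a repressing E2F, by 1.06 (0.00487), and RB1 by 0.72 (0.0145). The other DEGs were E2F2, LIN9 and NFYB, with log2 fold changes of -0.96, -0.91 and -0.57. FOXM1, a driver of G2/M genes, had -0.23 (edgeR FDR = 0.451). Of the 15 DEGs on these lists, 4 were still DEGs when control replicate 1 was left out, 5 when it was control replicate 2 and 15 when it was control replicate 3. Leaving out Apatinib replicates 1, 2 or 3 kept 8, 11 and 15. The DEGs over all genes, 1866 with every replicate, numbered 275, 300 and 2594 in the first 3 of these fits and 795, 1493 and 2030 in the others. CDKN1C, FBXO5, RBL1 and E2F8 were DEGs in all 6 of these fits. CDC27, RB1, E2F2, LIN9 and NFYB were not DEGs without control replicate 1, nor without control replicate 2.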

How the data were processed

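RNA sequencing of the 6 SW872 samples was used. The submitters' processing notes name CASAVA, STAR 2.7.1a and hg19. The counting program, the annotation and any use of strand are not given in the sources used here. For each gene, the authors deposited raw whole-number counts in 1 table and FPKM values by sample, which the authors scaled to transcript length and mapped fragments. The FPKM program is not given in the sources used here. The FPKM table of Apatinib replicate 1 also holds 1 column labelled as a control, which was left out. Genes were taken by the symbols of the count table. Since the annotation used here is on GRCh38, no gene coordinates of the files are given, the promoter windows are on GRCh38.p14 and not on the build of the files, and overlapping exons were looked up by name in GENCODE 29.

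Tests on counts used edgeR 4.0.16 in R 4.3.3 (filterByExpr, TMM factors, quasi-likelihood F test, Benjamini-Hochberg adjustment over 16290 genes). Intervals were taken from the F statistic. DEGs met the limits in the methods of the study (FDR below 0.05, absolute log2 fold change over 0.5). Log2 CPM used a prior count of 2. The scripts were tested on simulated data. Ratios of 2 genes were compared by exact permutation over samples, with 6 ratios in the family, since CCND2 allowed none. Alternatives were DESeq2 1.42.0, RLE factors, other filters, a replicate block, controls 1 and 2 summed, limma 3.58.1 on FPKM and leaving out each replicate. The named genes are the 10 members, on each list at most the 4 genes with the smallest p, and the 3 genes most alike in pattern to CCND1, CCNE2 and CDK1. CDK4, SKP2, FOXM1, LIN9, NFYB and the neighbours with overlapping exons were named after their values were seen. The members and lists were chosen with earlier results of these data known.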

Additional observations from a re-analysis of the deposited data

How the results depend on the processing

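The directions of the 9 log2 fold changes and of the 6 ratios held under all alternatives that were run. DEG calls did not. DESeq2 was given 32596 genes without edgeR's filter, and its own default filter on mean counts acted before the FDR. With it, CCNA2 (-0.57) was called and other cyclins held 2 DEGs, 1 in the main result, with 2054 DEGs over all genes. With no filter on low counts, CCNE1 (-0.61) and CCNA2 (-0.56) were called, so that 5 of the 10 genes and 2559 of 32596 genes were DEGs, and the lists held 2 (other cyclins), 4 (CDK inhibitor proteins) and 4 (cyclin degradation). With controls 1 and 2 summed as 1 sample, CCND1 (0.65, FDR = 0.0590) and CDK1 (-0.95, FDR = 0.0702) were not called by edgeR, leaving 1 of the 10 genes and 292 of all genes, against 1866, and the lists of other cyclins, other CDKs, CDK regulators, CDK inhibitors, degradation and transcription control held 0, 1, 0, 1, 1 and 2. With limma on log2(FPKM + 1), CCNE2 (-1.30) was not called, 733 genes were, and the lists held 0, 1, 0, 1, 1 and 3. With a pseudocount of 0.1, CCND1 (0.65), CCNE2 (-1.87) and CDK1 (-1.04) were not called, so that 0 of the 10 genes and 328 of all genes were (limma, with FDR values of 0.0509, 0.110 and 0.0824), and the lists held 0, 0, 0, 1, 1 and 2. The split of higher to lower DEGs was 529 to 204 and 275 to 53 in these 2 FPKM fits, 207 to 85 with the controls summed, and 973 to 893 in the main result. The cause of these changes was not tested.

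No pairing of the samples by replicate number was seen, although 3 replicates per group are too few to exclude it. Deviations of same-numbered samples correlated at -0.259, 0.0808 and -0.22, and 0 of 6 samples correlated best with their own number. With the number as a replicate block, CCNE1 (-0.68) and CCNA2 (-0.62) were called, giving 5 DEGs of the 10 genes, 2 on the list of other cyclins, 4 on that of degradation, and 2215 over all genes.

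When 1 replicate was left out, 1 to 4 of the 10 genes and 275 to 2594 of all genes were DEGs. The log2 fold changes ranged from 0.60 to 0.71 (CCND1), 0.0027 to 0.14 (CCND3), -0.78 to -0.35 (CCNE1), -2.04 to -1.45 (CCNE2), -0.78 to -0.35 (CCNA2), -0.45 to -0.14 (CCNB1), -0.52 to -0.28 (CCNB2), -1.24 to -0.81 (CDK1) and -0.48 to -0.17 (CDK2). DEGs ranged from 0 to 3 (other cyclins), 0 to 2 (other CDKs and CDK regulators), 1 to 2 (inhibitors), 1 to 3 (degradation) and 2 to 6 (transcription control). CCNE2 had only 34 counts in its lowest replicate, and the part of depth in its spread was not tested.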
